A study of Mus musculus with 6 samples.

Results

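The genes described here are Comp, which encodes cartilage oligomeric matrix protein, and 9 genes of small leucine-rich proteoglycans, the matrix proteins Fmod, Dcn, Lum, Bgn, Ogn, Aspn, Prelp, Omd and Podn. The members are the probes whose listed gene is one of these 10 names, which gave 18 of the 45281 probes and 10 of the 19057 named genes. The set was selected on the measured log2 rise of Comp in this same comparison, which ranked 2 among the 14962 features tested, so the genotype difference of Comp is given as a description with no test. The question asked was whether other matrix genes of fascia and tendon shared the array-by-array pattern of Comp.

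Comp is a pentameric protein of the thrombospondin family that is abundant in cartilage and tendon, where it binds collagen and other matrix proteins. Small leucine-rich proteoglycans are short secreted proteins built of leucine-rich repeats, most of which carry chondroitin, dermatan or keratan sulfate chains. They coat collagen fibrils, control fibril width and spacing, and some of them bind growth factors and surface receptors. In adipose depots fibroblasts and progenitor cells make most of these matrix proteins, and fascia and interlobular septa hold much of the collagen.

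Illumina bead arrays measured the subcutaneous fat of male FVB mice at 12 weeks of age, collected in the light phase, with 3 arrays for mitoNEET transgenic tissue and 3 for wild type tissue. The transgene product, mitoNEET, is an outer mitochondrial membrane protein encoded by Cisd1. The sample descriptions of both genotypes carry the tag aP2-SQ, but the promoter that drives the transgene is not spelled out in the labels, and they do not state whether the arrays of a genotype are different animals. The p-values therefore describe the spread among these samples only, which may be technical. Values are normalized intensities on a linear scale, and no probe's level can be set against another probe's. A difference is the transgenic log2 mean minus the wild type one, with its standard error (SE) from a limma fit across 14962 features, and p-values carry the Benjamini-Hochberg adjustment. A gene passed when the adjusted p was under 0.05. A probe counted as above background when it exceeded an intensity of 55.65 on at least 3 arrays.

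The arrays stood as follows before the matrix genes were compared. Cisd1 read 1091, 1106 and 1060.2 on transgenic arrays 1, 2 and 3, against 1035, 773 and 937 on wild type arrays 1, 2 and 3 (log2 0.26, SE 0.11, adjusted p = 0.163 in limma). Of 9 adipocyte markers tested 5 were higher in transgenic tissue (Plin1, Cidec, Lep, Pparg and Slc2a4) and none was lower, with a median log2 difference of 0.54. They summed to 62386 to 65028 on transgenic arrays and 47029 to 56214 on wild type arrays, and the part of this shift in the matrix calls was not tested. Wild type array 2 stood apart in skeletal muscle genes: 14 markers summed to 31737 there, against 3911 to 5535 on transgenic arrays and 3459 and 5013 on wild type arrays 3 and 1. T cell markers were lower in transgenic tissue and lowest on transgenic array 1, where 9 of them summed to 855, against 2654 and 3543 on transgenic arrays 2 and 3 and 6567 to 12137 on wild type arrays. All 8 T cell and all 4 B cell markers tested were called lower, as were 4 of 5 lymphoid stroma markers. Their median log2 differences were −2.25, −1.68 and −2.32. The part of this fall in the lower calls below was not tested. Over all features 5.11% were called higher and 8.26% lower, and the groups did not overlap in 35.9%. Without transgenic array 2 no feature passed in limma (3629 had an unadjusted p under 0.05), so no call below held with that array left out. The log2 differences themselves changed less there. Podn was 0.73 and Pcolce2 1.08 (0.73 and 1.09 with all arrays), and Dpp4 was −0.77 (−0.92 with all arrays). In bulk tissue, fewer cells of a type and less RNA per cell cannot be told apart.

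Bases before the annotated start of 3 members are shown because Bgn and Podn followed the arrays as Comp did and Ogn did not. Each run is the 250 bases before the start on the gene's own strand, from RefSeq (GRCm38.p6). Runs were at hand for 7 of the 10 members, and not for Comp, Dcn and Lum. Capitals mark every match found on either strand to the TATA box, spelled TATAAA, to the GC box, spelled GGGCGG, to the CCAAT box, to the Smad element spelled CAGACA, and to the E-box spelled CACGTG. Podn has a second annotated start, whose run is not shown and held no match to any of these motifs.
Bgn, chrX:73483351-73483600, plus strand: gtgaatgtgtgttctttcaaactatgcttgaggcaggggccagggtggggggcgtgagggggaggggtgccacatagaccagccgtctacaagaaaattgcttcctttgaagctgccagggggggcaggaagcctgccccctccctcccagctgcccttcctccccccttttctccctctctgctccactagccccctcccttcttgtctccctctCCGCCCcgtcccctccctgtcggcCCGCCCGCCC
Podn, chr4:108031955-108032204, minus strand: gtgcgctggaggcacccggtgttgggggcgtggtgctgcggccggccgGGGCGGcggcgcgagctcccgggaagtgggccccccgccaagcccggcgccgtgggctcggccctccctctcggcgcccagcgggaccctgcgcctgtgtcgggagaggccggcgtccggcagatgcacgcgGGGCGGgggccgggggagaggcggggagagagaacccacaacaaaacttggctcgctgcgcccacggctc
Ogn, chr13:49607765-49608014, plus strand: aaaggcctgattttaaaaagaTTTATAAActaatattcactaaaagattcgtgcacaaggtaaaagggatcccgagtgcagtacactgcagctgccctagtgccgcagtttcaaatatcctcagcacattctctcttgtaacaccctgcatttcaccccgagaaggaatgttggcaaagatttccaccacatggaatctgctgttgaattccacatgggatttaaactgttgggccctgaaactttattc

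The Bgn run held 3 matches to GGGCGG and the first Podn run held 2, while the Ogn run held none of these and 2 overlapping matches to TATAAA, 1 on each strand. GGGCGG was present in 32.7% and TATAAA in 12.4% of the 32851 runs of the same length. G and C made up 64.4% of the Bgn run, 78% of the Podn run and 42% of the Ogn run. A match describes letters only, and no site or cause follows from it.

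Comp, a member of the thrombospondin family, was higher on every transgenic array than on any wild type array at its brighter probe. That probe read 627, 418 and 234 on transgenic arrays 1, 2 and 3, against 80.1, 69.9 and 178 on wild type arrays 1, 2 and 3. The closest pair of arrays across genotypes was transgenic array 3 and wild type array 3, and both genotypes spanned a wide range. The log2 difference was 1.98 (SE 0.41), or 3.95-fold, with means of 426 ± 197 in transgenic tissue and 109 ± 59.7 in wild type tissue (SD, n = 3 each). A second Comp probe, dimmer and nearer to background, read 187, 117 and 83.8 on transgenic arrays 1, 2 and 3, against 60.1, 62.6 and 88.4 on wild type arrays 1, 2 and 3. There the groups overlapped, since wild type array 3 lay above transgenic array 3, and the log2 difference was 0.82 (SE 0.26). Both probes put transgenic array 1 highest and wild type array 3 above the other wild type arrays. Leaving out 1 array at a time kept the brighter probe's difference between 1.646 (without transgenic array 1) and 2.40 (without wild type array 3), and with the mean of both probes it was 1.40.

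**Figure D1:**
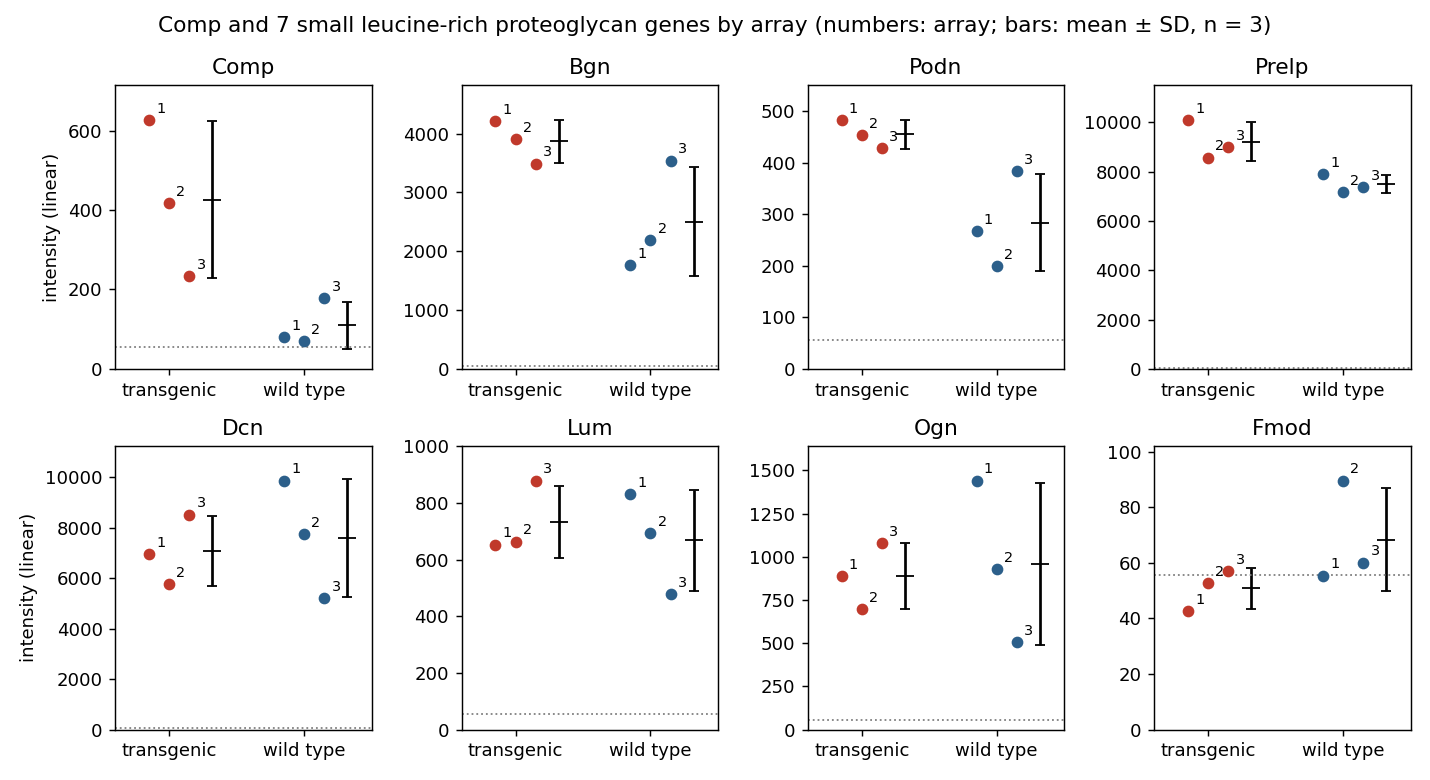
Normalized intensity (linear axis from 0) of the brightest kept probe of Comp and 7 small leucine-rich proteoglycan genes on each array, with transgenic arrays in red at the left and wild type arrays in blue at the right of each panel. Numbers name the array, black bars are mean ± SD (n = 3) and the dotted line is the background threshold; Comp, Podn and Prelp show no overlap between genotypes, whereas Dcn, Lum and Ogn do.

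Of the 9 proteoglycan genes, 7 had a probe above background on at least 3 arrays, and 1 of these, Podn, was called higher in limma and none was called lower. All features gave 5.11% higher and 8.26% lower, so 1 of 7 is too small a count to set apart from that share. The groups did not overlap in 2 of the 7, Podn and Prelp, both with transgenic arrays above, which was the case in 18.5% of all features, while transgenic arrays lay wholly below in 17.4%. The median log2 difference of the 7 was 0.15, beside 0.03 over all features. With 3 arrays against 3, an exact permutation test of a single gene cannot give a two-sided p below 0.1.

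Podn encodes podocan, which binds collagen and restrains smooth muscle growth in mice. It read 483, 453 and 428 on transgenic arrays 1, 2 and 3, against 267, 199 and 384 on wild type arrays 1, 2 and 3. All transgenic arrays were above all wild type arrays, and wild type array 3 was again the highest wild type array. The difference was 1.66-fold (log2 0.73, SE 0.21, adjusted p = 0.0497 in limma), just under the threshold. The call ended without transgenic array 1, 2 or 3 or without wild type array 1 or 2, each left out alone (adjusted p 0.0931 to 0.136), and held without wild type array 3 (log2 0.98, adjusted p = 0.0110).

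Bgn encodes biglycan, which carries chondroitin or dermatan sulfate chains, binds collagen and signals through toll-like receptors when released. It read 4219, 3904 and 3492 on transgenic arrays 1, 2 and 3, against 1770.0, 2196 and 3543 on wild type arrays 1, 2 and 3. The overlap came from wild type array 3, which lay just above transgenic array 3. The difference was 1.61-fold (log2 0.69, SE 0.22) and did not pass (adjusted p = 0.0748 in limma). Without wild type array 3, the array that made the overlap, it was 0.97 on the log2 scale (SE 0.13, adjusted p = 0.0104). It also passed with array weights (adjusted p = 0.0430), and in no other of the 18 alternatives. With any other single array left out the adjusted p in limma was 0.113 to 0.220, and without wild type array 1 the log2 difference fell to 0.47.

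Prelp encodes a proline- and arginine-rich repeat protein that links basement membranes to collagen. It read 10105, 8567 and 8999.8 on transgenic arrays 1, 2 and 3, against 7894, 7178 and 7388 on wild type arrays 1, 2 and 3. The groups did not overlap, but the gap was small and wild type array 3 did not stand out. The log2 difference of 0.30 (SE 0.09) did not pass (adjusted p = 0.0681 in limma) and passed only when each array was centred on its median (0.34, adjusted p = 0.0476) among 18 other settings tried.

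Decorin, lumican and osteoglycin, the products of Dcn, Lum and Ogn, decorate collagen fibrils and limit their width. Dcn read 6958, 5748 and 8509.9 on transgenic arrays 1, 2 and 3, against 9859, 7736 and 5204 on wild type arrays 1, 2 and 3. Lum read 653, 663 and 878 on transgenic arrays 1, 2 and 3, against 831, 694 and 478 on wild type arrays 1, 2 and 3. Ogn read 889.6, 696 and 1079 on transgenic arrays 1, 2 and 3, against 1441, 929.6 and 508 on wild type arrays 1, 2 and 3. In all 3 genes the groups overlapped, wild type array 1 was the highest and wild type array 3 the lowest wild type array, and transgenic array 3 was the highest transgenic array. The log2 differences were −0.07 (SE 0.23) for Dcn, 0.15 (SE 0.20) for Lum and −0.01 (SE 0.33) for Ogn, none of which passed (adjusted p = 0.860, 0.648 and 0.987 in limma). Their signs are not settled, since Dcn and Ogn turned positive without wild type array 1 (0.14 and 0.35) or without transgenic array 2 (0.07 and 0.16), Ogn also without wild type array 2 (0.03), and Lum turned negative without wild type array 3 (−0.07).

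The other probes of these genes were read separately. Dcn had 4 kept probes, whose log2 differences ran from −0.41 (SE 0.28) to 0.26 (SE 0.13), and Lum had a second probe at 0.27 (SE 0.18). None of these passed when all 22037 kept probes were tested (adjusted p 0.233 or more for Dcn, 0.364 or more for Lum), where 5.71% were called higher and 7.36% lower. Wild type array 3 was the lowest wild type array at all 4 Dcn probes and both Lum probes. The remaining 2 Ogn probes stayed near background, between 47.2 and 63.4.

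**Figure D2:**
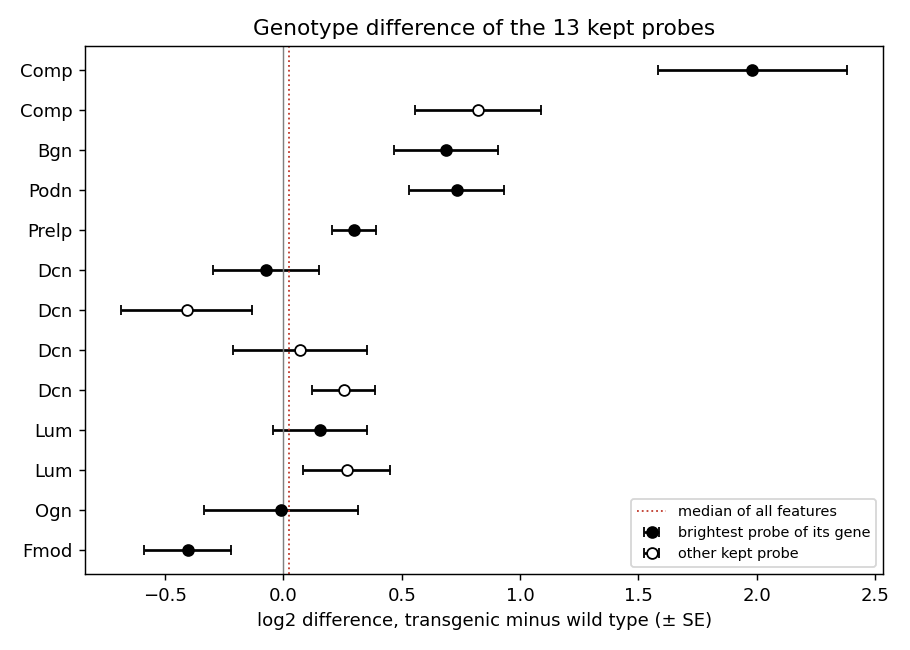
Log2 difference, transgenic minus wild type, with its SE (horizontal axis), for each of the 13 kept probes of the 8 genes above background. Filled points are the brightest probe of a gene and open points its other probes; both Comp probes lie right of 0, and the 4 Dcn probes lie on both sides of it.

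Fmod encodes fibromodulin, which is plentiful in tendon and competes with lumican for collagen. Its brighter probe read 42.7, 52.7 and 57.2 on transgenic arrays 1, 2 and 3, against 55.4, 89.6 and 60.1 on wild type arrays 1, 2 and 3. Only 3 of these 6 values exceeded the background threshold, and the highest was on wild type array 2, which also carried the muscle signal. The log2 difference of −0.40 (SE 0.19, adjusted p = 0.177 in limma) is therefore a difference between values near background, and the second Fmod probe read 39.5 to 50.6 on transgenic arrays and 41.6 to 49.6 on wild type arrays. Aspn, the gene of asporin, read 43.0 to 50.6 on transgenic arrays and 45.9 to 49.9 on wild type arrays, and Omd, the gene of osteomodulin, a keratan sulfate proteoglycan of bone, read 45.0 to 56.2 on transgenic arrays and 47.6 to 54.4 on wild type arrays. Readings this close to background cannot tell a low level from an unresponsive probe.

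The members fell into groups by how the arrays of a single genotype differed, a measure that leaves out the genotype contrast. For each gene the genotype mean was removed and the 6 deviations were set against those of Comp by Pearson's r, which with so few arrays is a description. Against Comp, r was 0.804 for Bgn, 0.791 for Podn and 0.337 for Prelp, and it was −0.746 for Dcn, −0.882 for Lum, −0.698 for Ogn and −0.627 for Fmod. Dcn, Lum and Ogn kept together, with r between 0.947 and 0.987 among themselves, and each ran opposite to Bgn (−0.903 to −0.954). All these genes were read on the same 6 arrays, so that anything that differs between arrays enters every r.

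The same split shows in the order of the arrays. In Comp, Bgn and Podn the highest wild type array was 3 and the highest transgenic array was 1, an order found in 12.1% of all features and in 28.8% of the features called higher. In Dcn, Lum and Ogn wild type array 1 was highest and 3 lowest while transgenic array 3 was highest, an order found in 6.0% of all features. Fibroblast and progenitor markers followed the second order in their wild type arrays. Of 13 such markers, 12 were highest on wild type array 1 and lowest on wild type array 3, against 19.5% of all features. Their summed intensity was 8239, 6607 and 8343.5 on transgenic arrays 1, 2 and 3, against 10978, 8814 and 6029 on wild type arrays 1, 2 and 3, and its part in the readings of Dcn, Lum and Ogn was not tested. Pdgfra, the receptor gene that marks these cells, read 343 to 455 on transgenic arrays and 334 to 757 on wild type arrays, and Dpp4, a progenitor surface peptidase gene, was the only marker of the list called, as lower (log2 −0.92, SE 0.25, adjusted p = 0.0443 in limma). The Dpp4 call ended with any single array left out except wild type array 3.

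**Figure D3:**
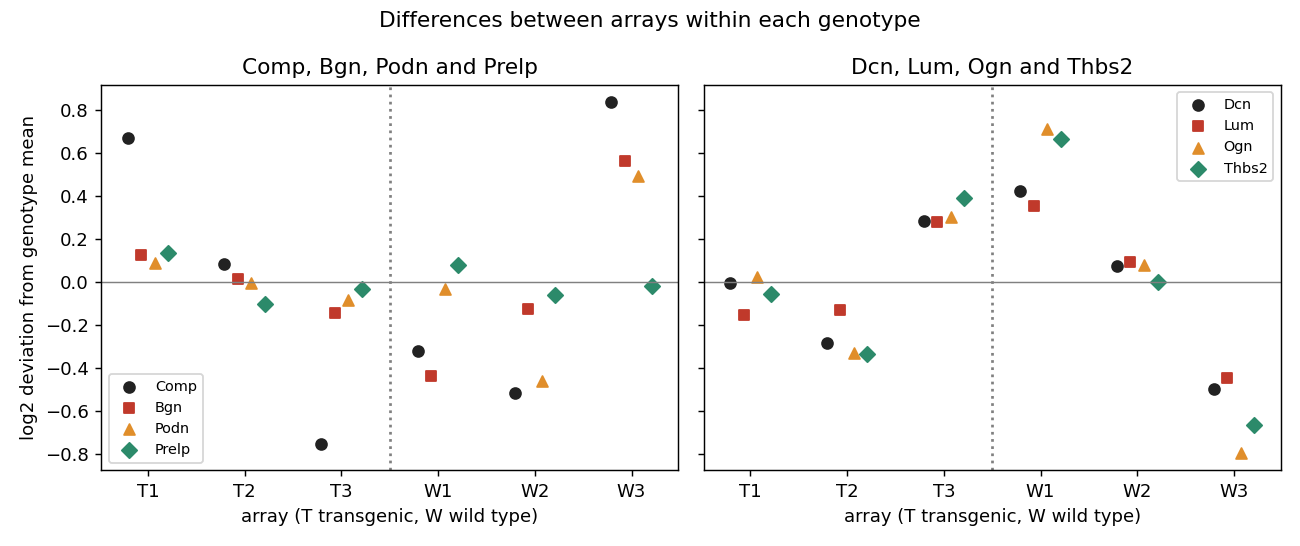
Log2 deviation of each array from the mean of its own genotype (vertical axis) for 4 genes per panel, with the transgenic arrays T1 to T3 left of the dotted line and the wild type arrays W1 to W3 right of it. At left Comp, Bgn and Podn are highest on T1 and W3, whereas Prelp stays nearer to 0 than Comp; at right Dcn, Lum, Ogn and Thbs2 are highest on T3 and W1 and lowest on W3.

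Genes of several kinds lay near Comp in their array pattern. By the deviations from genotype means, the 8 nearest of 369 genes that varied at least 0.5 times as much as Comp were Fam110c (r 0.992), the retinol binding protein gene Rbp4 (0.975), Dusp15 (0.974), the collagen receptor gene Ddr1 (0.958), Cdhr5 (0.945), Kcne1l (0.942), the glycine transporter gene Slc6a9 (0.940) and the sulfotransferase gene Sult2b1 (0.936). Among genes that varied less than that limit, some matrix genes came about as near: r was 0.985 for Thbs1, 0.946 for Ltbp4, a latent TGF-beta binding protein gene, 0.938 for B3gnt7, an enzyme gene of keratan sulfate chains, and 0.934 for Pcolce2. B3gnt7 read only 51.9 to 61.4, close to background, with transgenic arrays below wild type arrays. Other matrix genes ran as far the other way, such as Chsy1 (−0.99), Chst1 (−0.91) and Mmp14 (−0.89). Of these Chsy1 read only 44.5 to 63.3, also close to background. Ddr1 read 544, 398 and 335 on transgenic arrays 1, 2 and 3, against 145, 142 and 288 on wild type arrays 1, 2 and 3, which is the order of Comp on all 6 arrays. Over the 6 log2 values themselves, with the genotype difference left in, 276 of 11468 other genes reached r of 0.95, led by Golga3, H2bc14, Aoc1, Cnksr1, Slc16a10, Usp9x, Id3 and Tmem98 (0.994 to 0.999). On that scale the matrix genes Pcolce2 (0.983), Sox9 (0.960) and Slc26a2, a sulfate transporter gene (0.955), also passed 0.95, as did Alpl, the alkaline phosphatase gene (0.962), while Bgn reached 0.915 and Podn 0.929. That r contains the rise by which Comp was chosen, so a gene that rose tends to score high on it.

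Some keratinocyte markers, though not all, were high on transgenic arrays 1 and 2, where Comp was highest. The 8 markers read summed to 1058, 1114 and 681 on transgenic arrays 1, 2 and 3, against 664, 646 and 645.5 on wild type arrays 1, 2 and 3. Krt5 and Krt1 stayed near background on all arrays (39.4 to 53.9), Krt14 reached 90.6 and 104 on transgenic arrays 1 and 2, and Lor, the loricrin gene of cornified skin, read 164 and 204 there, against 48.3 on transgenic array 3 and 45.8 to 50.6 on wild type arrays. Perp also stayed near background (49.3 to 54.5). Krt10, the brightest marker, read 415, 430 and 267 on transgenic arrays 1, 2 and 3, against 307, 262 and 281 on wild type arrays 1, 2 and 3. It did not pass (adjusted p = 0.199 in limma). Trp63, an epithelial transcription factor gene, read 191.5, 161.5 and 126 on transgenic arrays 1, 2 and 3, against 69.3, 84.7 and 73.9 on wild type arrays 1, 2 and 3, and was higher in transgenic tissue (log2 1.06, adjusted p = 0.0145 in limma). Transgenic array 3, where Comp was 234, had Trp63 and the summed markers above every wild type array. Its Krt10, Lor and Krt14 readings lay within the wild type range, and Krt15 (47.9) lay below it. Wild type arrays 2 and 3, where Comp was lowest and highest among wild type arrays, had nearly equal sums. The part of such cells in the Comp values was not tested.

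None of the 3 other thrombospondin genes tested passed. Thbs2, which like decorin limits fibril width, read 288, 238 and 393 on transgenic arrays 1, 2 and 3, against 635, 401 and 253 on wild type arrays 1, 2 and 3, and followed the array order of Dcn (log2 −0.42, SE 0.31, adjusted p = 0.399 in limma). Thbs3, which forms pentamers as Comp does, read 118, 102 and 99.98 on transgenic arrays 1, 2 and 3, against 99.7, 83.6 and 77.6 on wild type arrays 1, 2 and 3. Its groups did not overlap, by a narrow margin, and its difference did not pass (log2 0.29, SE 0.12, adjusted p = 0.126 in limma). Thbs1, an activator of latent TGF-beta, read 55.3 to 66.2 on transgenic arrays and 50.04 to 60.1 on wild type arrays, close to background, with the array pattern of Comp (r 0.985 from deviations; log2 0.20, adjusted p = 0.249 in limma). Thbs4, a tendon and muscle thrombospondin, stayed below the threshold at 42.3 to 49.3.

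Other leucine-rich proteoglycan genes gave no reading above the threshold: Kera, Epyc, Optc, Nyx, Chad, Podnl1 and Ecm2 all lay between 38.5 and 55.2 at every probe.

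Genes that define tendon were near background in both genotypes. Of 15 tendon and fascia genes read, 9 stayed below the threshold, among them the tendon transcription factor genes Scx (45.9 to 51.1) and Mkx and the matrix genes Cilp (42.4 to 49.7) and Thbs4. None of the 6 tested genes was called in either direction, beside 13.4% called over all features, and their median log2 difference was 0.12. Tnmd, the tenomodulin gene, read 49.4 to 59.1 on transgenic arrays and 48.2 to 62.1 on wild type arrays. The nearest to a change were Cthrc1, a repair matrix gene (61.5, 57.4 and 58.5 on transgenic arrays 1, 2 and 3, against 41.3, 45.3 and 55.1 on wild type arrays 1, 2 and 3; log2 0.33, SE 0.11, adjusted p = 0.0874 in limma), and Tnc, the tenascin C gene (145 to 164 on transgenic arrays and 114 to 144 on wild type arrays; log2 0.26, SE 0.11, adjusted p = 0.136). All wild type readings of Cthrc1 lay below the background threshold, so the filter kept it through its transgenic arrays alone. Its test is thus no support for a rise. Col14a1, a collagen of fascia and tendon that coats fibrils, had a log2 difference of 0.20 (adjusted p = 0.374), and Tnxb, the tenascin X gene, one of 0.03 (adjusted p = 0.933).

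Structural genes of cartilage were likewise near background. Of 15 cartilage genes read, 9 stayed below the threshold, including Acan, Matn1, Matn3, Hapln1 and Col10a1, which all read between 38.7 and 54.6. Col2a1, the main cartilage collagen, read 52.3 to 56.2 on transgenic arrays and 52.9 to 59.7 on wild type arrays. Of the 6 tested genes 1 was called, Sox9, the chondrocyte transcription factor gene, which is also expressed outside cartilage. Sox9 read 181, 152 and 119.8 on transgenic arrays 1, 2 and 3, against 79.2, 96.1 and 108 on wild type arrays 1, 2 and 3. Its order was the order of Comp on the transgenic arrays, and wild type array 3 was the highest wild type array (log2 0.67, SE 0.17, adjusted p = 0.0365 in limma). The call ended without transgenic array 1 or 2 or without wild type array 1 or 2 (adjusted p 0.0757 to 0.113).

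Fibrillar collagens, on which the proteoglycans sit, gave no call among 10 tested genes, with a median log2 difference of −0.01. Col1a1, a chain of type I collagen, read 571, 412 and 695 on transgenic arrays 1, 2 and 3, against 987, 744 and 669 on wild type arrays 1, 2 and 3 (log2 −0.53, SE 0.20, adjusted p = 0.118 in limma). Col27a1 had transgenic arrays below wild type arrays (log2 −0.35, adjusted p = 0.101), Col5a2 had them above (0.21, adjusted p = 0.140), and Col11a2 overlapped (0.11, adjusted p = 0.417). Col5a2 lay below the background threshold on all wild type arrays, so the filter kept it through the group where it was higher. By deviations from genotype means 8 of the 10 collagens ran opposite to Comp (median r −0.55), as did Dcn. This was not particular to collagens: r was negative in 12 of 13 fibroblast, 12 of 12 skeletal muscle and 8 of 8 T cell markers. It was positive in 7 of 9 adipocyte markers, and its sign over all features was not counted. Col2a1, Col5a2 and Col11a1 read close to background, which limits their r. The same r to Comp was positive in 4 of 6 tendon and fascia genes (median 0.232). Among them were Tnc (0.782) and Cthrc1 (0.727), which lay close to Podn, though Cthrc1 read near background. This r was positive in 4 of 6 cartilage genes (median 0.335) and 7 of 12 protease genes (median 0.348).

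Among genes of collagen processing 2 of 15 tested were higher and none was lower, 13.3% called beside 13.4% over all features, with a median log2 difference of 0.19. Pcolce2 encodes an enhancer of the protease that trims procollagen. It read 1253, 1033 and 811 on transgenic arrays 1, 2 and 3, against 491, 364 and 607 on wild type arrays 1, 2 and 3, with no overlap and with the same ranks as Comp on all 6 arrays. It rose 2.13-fold (log2 1.09, SE 0.21, adjusted p = 0.0185 in limma), and the call ended without transgenic array 1 or 2 or without wild type array 2 (adjusted p 0.0536 to 0.0671). Sparc, a collagen-binding matricellular gene, read 12152, 11346 and 12879.7 on transgenic arrays 1, 2 and 3, against 10053, 9558 and 9849 on wild type arrays 1, 2 and 3. It rose by 0.30 on the log2 scale (SE 0.08, adjusted p = 0.0493), a call that ended with any single array left out, and by 0.56 at its probe of largest SD (adjusted p = 0.0385). Serpinh1, the collagen chaperone gene (log2 0.29, adjusted p = 0.0502), and Crtap, a subunit gene of a prolyl hydroxylase complex (0.31, adjusted p = 0.0542), lay just past the threshold.

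Elastic fibre genes gave no call among 11 tested, with a median of 0.01. The smallest p-values belonged to Mfap5, a microfibril gene (log2 0.45, SE 0.17, adjusted p = 0.112 in limma), Fbln2, the fibulin 2 gene (0.35, SE 0.14, adjusted p = 0.119), Eln, the elastin gene (0.16, SE 0.09, adjusted p = 0.287), and Ltbp2, a latent TGF-beta binding protein gene (−0.16, adjusted p = 0.313).

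The glycosaminoglycan chains of the proteoglycans need sulfate donors and sulfotransferases. Of 25 tested genes of chain synthesis 2 were higher and 2 lower, 16% beside 13.4% over all features. Papss1 and Papss2 encode the enzymes that make the sulfate donor PAPS. Papss2 read 1063, 1154 and 941 on transgenic arrays 1, 2 and 3, against 823, 629 and 822 on wild type arrays 1, 2 and 3 (log2 0.48, SE 0.13, adjusted p = 0.0449 in limma). Papss1 also rose, by 0.31 on the log2 scale (SE 0.09, adjusted p = 0.0483). Chst3, a chondroitin 6-sulfotransferase gene, was lower: it read 58.4, 105 and 87.3 on transgenic arrays 1, 2 and 3, against 188.5, 315 and 250.04 on wild type arrays 1, 2 and 3 (log2 −1.60, SE 0.24, adjusted p = 0.0145). Chst2, an N-acetylglucosamine 6-sulfotransferase gene of lymphoid vessels, fell too (log2 −0.48, SE 0.13, adjusted p = 0.0417). In both sulfotransferase genes wild type array 2 was the highest array, as it was for the summed T cell markers given above, whose part in these falls was not tested. With 1 array left out, Chst3 lost its call without transgenic array 2 alone, Papss2 in 4 of 6 fits, and Papss1 and Chst2 in 5 of 6.

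Of 11 tested genes of receptors that bind decorin or biglycan, 1 was higher and 1 lower (9.09% each, beside 5.11% and 8.26% over all features). Met, the hepatocyte growth factor receptor gene, rose (108, 125 and 101 on transgenic arrays 1, 2 and 3, against 78.0, 84.0 and 83.1 on wild type arrays 1, 2 and 3; log2 0.44, SE 0.10, adjusted p = 0.0265 in limma). Cd44, which encodes a hyaluronan receptor that leukocytes also carry, fell (339, 362 and 293 on transgenic arrays 1, 2 and 3, against 499, 541 and 431 on wild type arrays 1, 2 and 3; log2 −0.56, SE 0.12, adjusted p = 0.0218). Lrp6 and Tlr2, a toll-like receptor gene, did not pass (log2 0.33 and −0.21, adjusted p = 0.109 and 0.157). Of 12 tested protease genes 2 were higher (16.7%, beside 5.11% over all features) and none was lower, Adamts9 (log2 0.62, SE 0.14, adjusted p = 0.0279) and Adamts1 (0.44, SE 0.10, adjusted p = 0.0291), whose products cleave large proteoglycans. With the mean of all kept probes Adamts1 was 0.24 and did not pass (adjusted p = 0.123). Mmp13, a collagenase gene, did not pass (0.59, adjusted p = 0.0676), nor did Adamts12, whose product cleaves Comp (0.33, adjusted p = 0.138).

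TGF-beta genes, whose products induce many matrix genes and are bound by decorin and biglycan, gave 2 higher and 2 lower of 9 tested (22.2% each, beside 5.11% and 8.26% over all features). Ccn2, the gene of connective tissue growth factor, read 974, 1033 and 856 on transgenic arrays 1, 2 and 3, against 305, 397 and 756 on wild type arrays 1, 2 and 3. It rose 2.11-fold (log2 1.08, SE 0.28, adjusted p = 0.0415 in limma), with wild type array 3 close to transgenic array 3, as for Comp, Bgn and Podn. Ccn1, a related matricellular gene, rose by 0.50 (SE 0.12, adjusted p = 0.0350), whereas the ligand gene Tgfb1 (log2 −0.43, SE 0.10, adjusted p = 0.0319) and the receptor gene Tgfbr2 (−0.52, SE 0.11, adjusted p = 0.0221) fell. With the mean of all kept probes Ccn1 was 0.19 and did not pass (adjusted p = 0.172), and with an intensity trend and robust prior Ccn2 did not pass (adjusted p = 0.0990). With 1 array left out, Tgfbr2 lost its call in 3 of 6 fits, Ccn1, Met and Cd44 in 4, and Ccn2, Tgfb1, Adamts1 and Adamts9 in 5.

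**Figure D4:**
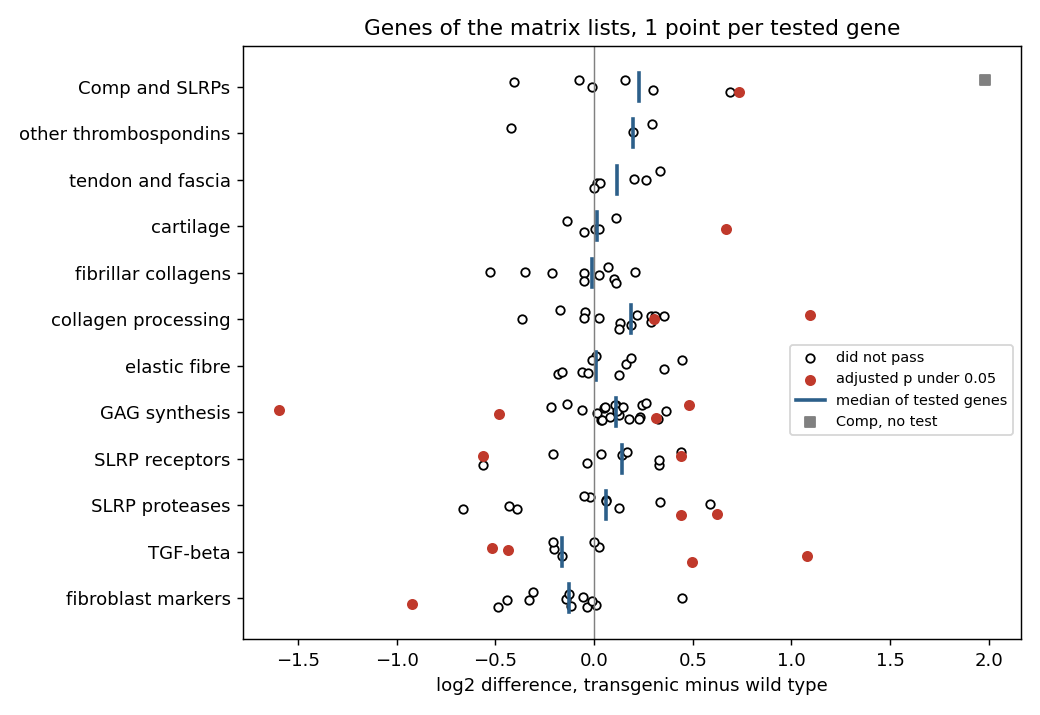
Log2 difference, transgenic minus wild type (horizontal axis), of each tested gene in 12 lists, with red points for genes at an adjusted p under 0.05 in limma, open points for genes that did not pass, the grey square for Comp, which was not tested, and a blue bar for the median of each list. Comp lies at 1.98, and the other points of its own list lie between −0.40 and 0.73 (SLRP, small leucine-rich proteoglycan; GAG, glycosaminoglycan).

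Over the 11 matrix lists other than the members, 104 different genes were tested, of which 10 were higher (9.62%) and 5 lower (4.81%), beside 5.11% and 8.26% over all features. Their median log2 difference was 0.08. The 15 calls came to 0 without transgenic array 2, 1 without wild type array 2, 2 without transgenic array 1, 5 without transgenic array 3, 10 without wild type array 1 and 19 without wild type array 3. With a background level subtracted they came to 0, and 174 of all features passed.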

How the data were processed

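Normalized expression was taken from the deposited table of probe intensities for 6 Illumina bead arrays. The deposited intensities are on a linear scale; for their normalization, the sources used here name no software. Sorted by size, array values never differed by more than 0.157, as after quantile normalization, so a change common to most genes would be hidden, and the lowest value was 32.4, so a background remains and folds of dim genes are understated. A scanner table was not used, since its 24 per-array columns match no sample's label.

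From these, log2 intensities were analysed. The background level was the commonest log2 value (an intensity of 47.8), and the threshold was set above it from the spread of the values beneath. A probe above that threshold, 55.65, on at least 3 arrays was kept (22037 of 45281). Probes were named through the platform annotation, and the Entrez identifiers of 34807 probes were found in the GRCm38.p6 gene table. The kept probe of highest mean stood for its gene, which with unnamed probes gave 14962 features. R 4.3.3 with limma 3.58.1 fitted genotype alone (lmFit, eBayes), with Benjamini-Hochberg adjustment over all features. The fit was tested on simulated data with independent noise in each feature, which does not carry the array patterns that genes share here. Named were all members, their relatives among small leucine-rich proteoglycans and thrombospondins, up to 4 genes of smallest p in each matrix list, and the 8 genes most like Comp by each of the measures given. Plin1, Pnpla2, Krt10, Tnmd, Ltbp4, B3gnt7, Chsy1, Chst1, Mmp14, Slc26a2, Alpl and the list genes below the threshold were named after their values were seen. The members and lists were chosen with earlier results of these data known. Alternatives covered scale, background, filter, probe, centring, array weights, the prior of the moderated statistic, arrays left out and a replicate block; the mean over probes was added after the data were seen. Precision is limited by the number of arrays.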

Additional observations from a re-analysis of the deposited data

How the results depend on the processing

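Under the 18 alternatives the log2 difference of Comp ran from 1.39 without wild type array 2 and transgenic array 1 to 2.91 with a background level subtracted, and from 1.646 to 2.40 with 1 array left out. Comp was chosen for its rise and its brighter probe had no overlap between genotypes. Leaving out arrays therefore could not reverse its sign, and only the size is informative. The number of proteoglycan genes called, 1 of 7 tested, was 0 with an offset of 16, with the background subtracted, with no filter, with an intensity trend and robust prior, without wild type array 2 and transgenic array 1, or with the mean of all kept probes, and 2 with centred arrays or array weights; with 1 array left out it was 0 to 2. The features called, 2001, were 174 with the background subtracted and 317 without wild type array 2 and transgenic array 1, and 0 to 2147 with 1 array left out. The genes called in the matrix lists, 15, were 0 with the background subtracted and 1 without those 2 arrays, and 0 to 19 with 1 array left out. Centring gave 50.7% higher calls against 38.2% without it. Ogn turned positive with centred arrays (0.028) and without those 2 arrays (0.018). Left-out arrays moved Dcn between −0.32 and 0.14, Lum between −0.068 and 0.33, and Ogn between −0.41 and 0.35. The cause of these changes was not tested. Same-numbered arrays share only a number: their deviations from the genotype means correlated at 0.413, 0.220 and −0.027 over features, and only number 1 matched best with its own number in both genotypes. With a replicate block Comp stayed at 1.98, 1 proteoglycan gene was called, 13 matrix genes were called and 2391 features passed.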
